A study of Mus musculus with 32 samples.

Results

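Constitutive open sites that carried neither the glucocorticoid receptor (GR) nor C/EBPβ were examined in mouse liver. They were chosen by interval position and width alone, as the DNase I hypersensitive sites (DHS) of the vehicle list that were under 1200 bp wide, shared at least 1 bp with a DHS of the dexamethasone list, and shared no base with a GR peak or with a C/EBPβ peak of either treatment. Of 56794 vehicle DHS, 26012 met this rule, which is 45.8% (95% Wilson interval 45.4 to 46.2). They are called peak-free constitutive DHS here. The livers came from adrenalectomized male C57BL/6 mice, 8 weeks old, given an intraperitoneal injection of dexamethasone complexed with cyclodextrin (1 mg/kg) or of cyclodextrin alone as vehicle, each in 300 µl of saline, and were examined after 1 h. Adrenalectomy was common to both treatments. It takes away the main source of endogenous glucocorticoid. The lists used were those of DNase-seq and of C/EBPβ ChIP-seq after each treatment (4 groups with 2 samples apiece), and the GR ChIP-seq list, whose name gives no treatment. The labels do not say which GR ChIP-seq samples that list stands for. Such samples came from vehicle livers, dexamethasone livers, and dexamethasone livers given an adenovirus for GFP or DN-C/EBP (2 samples of each). RNA polymerase II, input, and adenovirus DNase-seq and C/EBPβ ChIP-seq samples, also among the 32 of the series, were not analysed here. Whole liver was used, so hepatocytes and the other cell types of the organ cannot be told apart in any list.

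A DHS is a stretch of DNA that DNase I cuts easily because nucleosomes there are displaced or unstable. In any tissue, such sites include promoters of active genes, insulators bound by CTCF, and enhancers held open by tissue-specific factors. In hepatocytes these factors include FOXA and HNF proteins as well as C/EBPβ, a leucine zipper protein. GR is a hormone-activated nuclear receptor that binds mainly where chromatin is already open. The deposited lists give positions only, on mm9, so the width of a DHS is the only quantity they carry for it. Genes, promoters and sequence motifs at these sites were not analysed here, since no genome of that build was used.

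The lists hold neither heights nor counts, and 1 list stands for all livers of a treatment. Depth is therefore unknown, and a difference between the treatments cannot be told apart from a difference between the libraries behind the lists. The choice of sites used both DHS lists and all 3 peak lists, so the values below are descriptions with no test. Intervals in parentheses are 95% Wilson intervals for shares and 95% order-statistic intervals for medians. They cover counting error over sites, and neighbouring sites are not independent. Values per chromosome are given where they show how far a pattern holds across the genome.

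Peak-free sites were the largest group of constitutive DHS. A total of 48306 vehicle DHS overlapped a dexamethasone DHS, and 8488 did not. Of the 48306, 12798 held a C/EBPβ peak and no GR peak, 6868 held both, 1844 held a GR peak alone, and 26796 held neither. The width limit then set aside 784 of these 26796, leaving 53.8% of all constitutive DHS. The limit cut through a thin tail, with 54 sites of 1190 to 1199 bp just inside it and 23 sites of 1200 to 1209 bp just outside. For comparison, 11859 constitutive DHS under the same limit held C/EBPβ without GR, 7715 held GR, and 7484 DHS without any peak were found in the vehicle list alone.

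Peak-free constitutive DHS were intermediate in width. Their median was 583 bp (581 to 585), with quartiles of 490 and 691 bp. Constitutive DHS with C/EBPβ and no GR had a median of 634 bp (631 to 638), and those with GR 691 bp (687 to 696). Peak-free DHS of the vehicle list alone were narrower, with a median of 451 bp (449 to 454). A wider interval has more room to overlap a peak, so part of this order is built into the overlap rule.

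The share of peak-free constitutive sites among all vehicle DHS changed little over most of the range of width, while the other classes rose or fell across it. Vehicle DHS were divided into 10 width bins of near-equal size. In the narrowest bin (150 to 400 bp) they made up 45.6% (44.3 to 46.9), and vehicle-only DHS without peaks made up 41.1%. The share was highest in the fifth bin (555 to 596 bp), at 53.2% (51.9 to 54.5), and was 42.7% (41.4 to 44.0) in the ninth (784 to 976 bp). From the first to the ninth bin the share with C/EBPβ and no GR went from 6.8% to 29.5%, and the share with GR from 2.45% to 26.8%. Over the same bins vehicle-only DHS without peaks fell to 0.81%. Among constitutive DHS alone, the peak-free share therefore depended strongly on width, falling from 83.1% in the first bin to 43.1% in the ninth. In the last bin (977 to 6234 bp), which the 1200-bp limit cuts through, the share was 20.6%, and the limit set aside sites of this bin only.

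**Figure D1:**
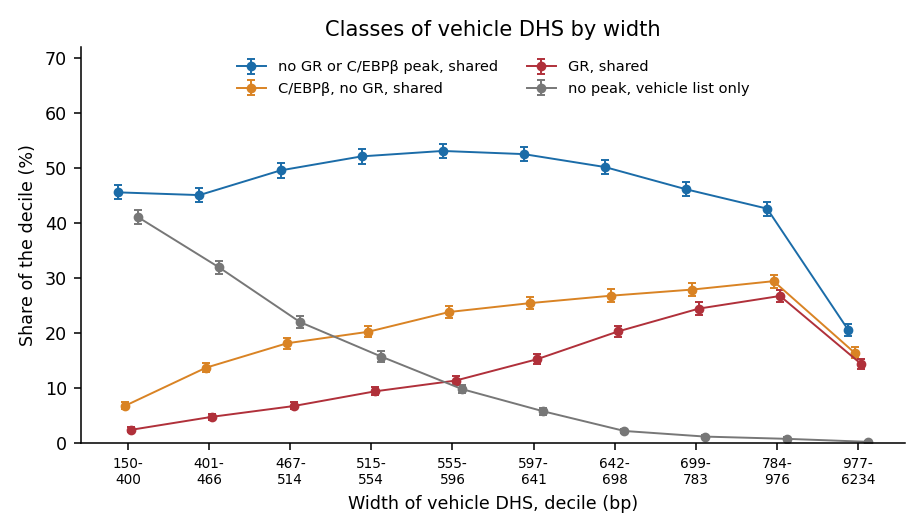
Share of vehicle DHS in each class, for 10 bins of vehicle DHS width in bp; bars are 95% Wilson intervals. Shared DHS without a GR or C/EBPβ peak stay between 42.7% and 53.2% in the first 9 bins, while vehicle-only DHS without a peak fall from 41.1% and GR-holding DHS rise from 2.45% to 26.8%.

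Within the peak-free set, 1 group stood apart by its width. Exactly 150 bp was the width of 575 sites (2.21% of the set), against 3 of the 11859 constitutive DHS with C/EBPβ and no GR and 6 of the 7715 with GR. Peak-free DHS of the vehicle list alone had a like share, 186 of 7484 (2.49%), so this width was not particular to constitutive sites. A 150-bp interval also has little room to overlap a peak. Of all 770 vehicle DHS of this width, 584 were constitutive, so nearly all of the latter were peak-free. Most of these narrow sites adjoined another open site. Of the 575, 457 (79.5%, 76.0 to 82.6) touched or overlapped another vehicle DHS, and 567 lay under 150 bp from one. A second recurrent width was set aside (132 sites), and among the remaining peak-free sites 345 of 25305 (1.36%, 1.23 to 1.51) touched another vehicle DHS. The dexamethasone DHS that matched a 150-bp site also covered another vehicle DHS in 561 of 575 cases.

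Some of the 150-bp sites adjoined DHS that did hold a peak. The touching vehicle DHS held a GR or C/EBPβ peak for 197 of the 575 (34.3%, 30.5 to 38.2), and a GR peak for 88. A touching DHS existed for 457 of the 575. Peaks are common in vehicle DHS at large: on the autosomes 36.9% held a C/EBPβ peak and 15.7% a GR peak. For the 25305 peak-free sites of other widths the touching DHS held a GR or C/EBPβ peak in 12 cases, but only 345 of them touched a vehicle DHS at all. The 132 sites of the second recurrent width were placed differently: 1 of them touched another vehicle DHS, and 120 had a one-to-one match in the dexamethasone list. When touching and overlapping intervals were first merged in each list, the rule gave 25469 peak-free constitutive DHS (an alternative chosen after seeing the data).

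**Figure D2:**
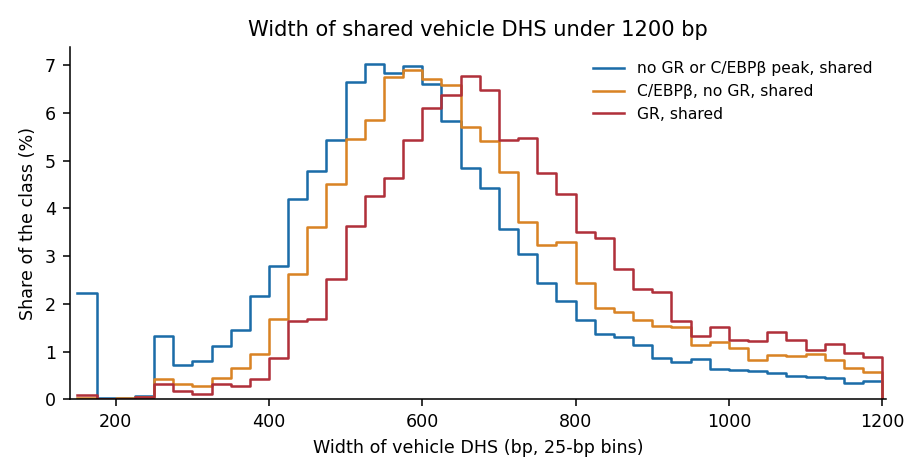
Width of constitutive DHS under 1200 bp in 25-bp bins, as a share of each class. The class without a GR or C/EBPβ peak has a separate bin at 150 bp holding 2.23% of its sites, and its median of 583 bp lies below the 634 and 691 bp of the other 2 classes.

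Peak-free constitutive DHS had nearly the same width and position after dexamethasone. Of the 26012, 25425 (97.7%) overlapped 1 dexamethasone DHS, 575 overlapped 2 and 12 overlapped 3. For 23916 the match was one to one, meaning that the dexamethasone DHS overlapped no other vehicle DHS either. Their median width was 586 bp in the vehicle list and 582 bp in the dexamethasone list. The median log2 width ratio (dexamethasone/vehicle) was -0.011 (-0.015 to -0.0076), and the median per chromosome lay between -0.029 and 0.0047 on the autosomes and X. Their centres moved by a median of 0 bp (quartiles -32 and 31 bp), and 69.7% of centres moved by at most 50 bp. The stretch common to both intervals was a median of 83.6% of their joint span. The rule requires an overlap, so part of this likeness in position is built in. It was not particular to peak-free sites: over all 44381 one-to-one DHS the values were 69.0% of centres and 84.5% of the joint span. Identical coordinates in both lists were found for 22 sites.

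Single sites nevertheless varied in both directions. Of the 23916, 47.9% were wider after dexamethasone, against 51.1% of all 44381 one-to-one DHS. At least 1.5-fold wider were 1365 peak-free sites (5.71%), where the share of all one-to-one DHS was 5.81%, and at least 1.5-fold narrower were 1343 (5.62%), where it was 4.22%. The wider share was thus near that of all DHS, and the peak-free sites went in both directions about equally often. Constitutive DHS with C/EBPβ and no GR had a median log2 ratio of -0.021 (-0.026 to -0.014), with 3.75% and 3.39% past 1.5-fold in the wider and narrower direction. Constitutive DHS with GR had a median of 0.14 (0.13 to 0.15), with 10.9% and 0.405%. Their median was positive on 20 of 20 chromosomes, whereas that of peak-free sites was positive on 2 and negative on 17.

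The direction of change followed the starting width. In the narrowest of 10 bins of peak-free sites by vehicle width (median 367 bp), the median log2 ratio was 0.41 (0.39 to 0.44), and in the ninth bin (median 772 bp) it was -0.088 (-0.098 to -0.077). Sorted by dexamethasone width instead, the order turned: the narrowest bin had -0.50 (-0.52 to -0.48) and the widest 0.10 (0.088 to 0.11). A median taken below a width limit therefore depends on the limit, and with one of 600 bp it was 0.065. For sites of like vehicle width, the gap to GR-holding sites was larger. With the vehicle widths of the peak-free sites, the median log2 ratio was 0.0089 for sites with C/EBPβ and no GR and 0.25 for sites with GR. GR-holding sites had the highest median in each of the 10 bins of vehicle width, from 0.91 in the narrowest to 0.039 in the widest.

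**Figure D3:**
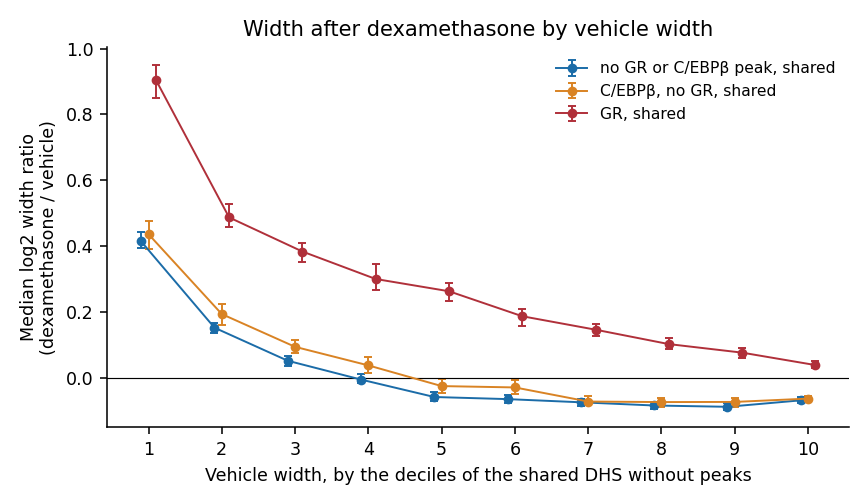
Median log2 width ratio (dexamethasone/vehicle) for one-to-one constitutive DHS, by 10 bins of vehicle width of the peak-free class; bars are 95% intervals of the median. The peak-free class falls from 0.41 to -0.068 and lies close to the class with C/EBPβ and no GR, while the class with GR lies above both in each bin.

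Peak-free sites lay at widely different distances from GR and C/EBPβ peaks, which by the rule they do not overlap. The median gap to the nearest GR peak was 52738 bp (quartiles 12341 and 168678 bp) over the 25934 sites on chromosomes with a GR peak, and 36.7% (36.2 to 37.3) of all 26012 lay over 100 kb from one. The median gap to the nearest C/EBPβ peak from the 2 lists was 14904.5 bp, and 14.2% (13.8 to 14.6) lay over 100 kb from one. A minority stood close by. A GR peak lay within 1 kb of 1193 sites (4.59%, 4.34 to 4.85) and within 10 kb of 5817 (22.4%, 21.9 to 22.9). A C/EBPβ peak lay within 1 kb of 2680 (10.3%, 9.94 to 10.7) and within 10 kb of 10905 (41.9%, 41.3 to 42.5). Peak-free DHS of the vehicle list alone lay somewhat farther off, with a median gap of 69187 bp to GR and 18123 bp to C/EBPβ. Constitutive DHS with C/EBPβ and no GR had a median gap to GR of 36692 bp.

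Width after dexamethasone differed with the kind of peak that lay nearby. Peak-free sites with a GR peak within 5 kb (3350 one-to-one sites) had a median log2 ratio of 0.022 (0.011 to 0.034), and those without (20566 sites) had -0.016 (-0.020 to -0.012). The median was higher near GR on 19 of 20 chromosomes. Sites within 5 kb of a dexamethasone-only C/EBPβ peak, one without a counterpart in the vehicle list (1603), had 0.029 (0.011 to 0.042), higher than other sites on 15 of 20 chromosomes. Sites within 5 kb of a vehicle-only C/EBPβ peak (702) had the opposite sign, -0.084 (-0.11 to -0.064), and were lower than other sites on 18 of 20 chromosomes. Their median width was 614 bp in the vehicle list and 582.5 bp in the dexamethasone list. Near C/EBPβ peaks present in both lists no such shift was seen before allowance for starting width. Sites 1 to 5 kb away had -0.014 (-0.024 to -0.0055), close to the value of the whole peak-free set.

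Held against the starting width, these differences had the same sign. After subtraction of the median of the vehicle-width bin that a site belonged to, the median was 0.052 near GR, 0.064 near dexamethasone-only C/EBPβ and -0.050 near vehicle-only C/EBPβ, and it lay between -0.0070 and 0.0017 for sites without the peak in question. The differences faded with distance. Near vehicle-only C/EBPβ the median log2 ratio was -0.084 (-0.11 to -0.063) at 1 to 5 kb (550 sites, negative on 19 of 20 chromosomes), -0.051 (-0.066 to -0.037) at 5 to 20 kb (1321 sites, negative on 18 of 20), and -0.0049 (-0.0093 to 0) beyond 100 kb. Near GR it was 0.10 (0.054 to 0.16) under 500 bp (263 sites), 0.015 (0.0027 to 0.027) at 1 to 5 kb (2522 sites, positive on 12 of 20 chromosomes) and -0.024 (-0.031 to -0.017) at 20 to 100 kb. The gradient around GR was not particular to peak-free sites. Constitutive DHS with C/EBPβ and no GR had 0.083 (0.021 to 0.19) under 500 bp, 0 at 1 to 5 kb and -0.041 beyond 100 kb. After subtraction for starting width these were 0.14, 0.052 and -0.011. For peak-free sites around C/EBPβ peaks of both lists, the same subtraction gave 0.011 (0.00088 to 0.020) at 1 to 5 kb. It gave 0.0030 at 5 to 20 kb, 0.0065 at 20 to 100 kb and -0.030 (-0.042 to -0.020) beyond 100 kb.

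**Figure D4:**
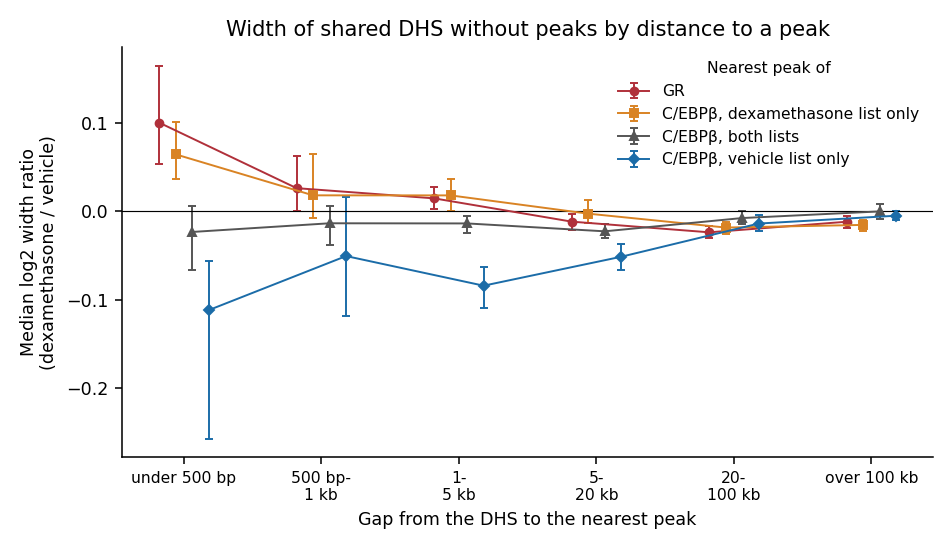
Median log2 width ratio (dexamethasone/vehicle) of peak-free constitutive DHS, by the gap to the nearest peak of 4 kinds; bars are 95% intervals of the median. Values near GR and near dexamethasone-only C/EBPβ peaks are positive up to 5 kb, those near vehicle-only C/EBPβ peaks are negative up to 20 kb, and all 4 lie between -0.024 and 0 from 20 kb on.

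Among the 263 sites under 500 bp from GR, 185 had a dexamethasone DHS that held no GR peak, and their median log2 ratio was -0.039 (-0.087 to 0.041). Leaving out the others removes by construction the sites whose interval reached the peak. At 1 to 5 kb, 2521 of the 2522 dexamethasone intervals held no GR peak, and the median over them was 0.015. Nor did the edge that faced the peak move more than the far edge at this distance. It moved outward by a median of 3 bp (0 to 6) near GR and the far edge by 2 bp (0 to 5). Near vehicle-only C/EBPβ at 1 to 5 kb, the facing edge moved inward, with a median outward shift of -17.5 bp (-24 to -9), and the far edge likewise, with -17 bp (-22 to -10).

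Nearby peaks of different kinds often stood together, so the groups were also divided by all 3 kinds within 5 kb. With GR and dexamethasone-only C/EBPβ both nearby (743 sites), the median log2 ratio was 0.062 (0.040 to 0.094), positive on 19 of 20 chromosomes. With GR alone nearby (2454 sites) it was 0.014 (0 to 0.027), and with dexamethasone-only C/EBPβ alone (807 sites) 0.0022 (-0.022 to 0.020). After the same subtraction for starting width, these medians were, in the same order, 0.11 (0.081 to 0.12), 0.043 (0.031 to 0.055) and 0.027 (0.010 to 0.052). With vehicle-only C/EBPβ alone nearby (524 sites) the median log2 ratio was -0.089 (-0.12 to -0.071), negative on 19 of 20 chromosomes. With GR and vehicle-only C/EBPβ both nearby (125 sites) it was -0.080 (-0.12 to -0.0069), negative on 8 of the 11 chromosomes with 5 or more such sites, so the sign was that near vehicle-only C/EBPβ and not that near GR. After subtraction for starting width this median was -0.024 (-0.062 to 0.011), and that with vehicle-only C/EBPβ alone was -0.062 (-0.089 to -0.035). With none of the 3 (19210 sites) the median log2 ratio was -0.015 (-0.019 to -0.011), and -0.0073 (-0.012 to -0.0036) after the subtraction. Single sites varied more widely than these medians, with quartiles of the log2 ratio of -0.20 and 0.18 over all peak-free sites.

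A few sites that were peak-free in the vehicle interval matched a dexamethasone interval that held a peak. The matching dexamethasone DHS held a GR peak for 387 of the 26012 (1.49%, 1.35 to 1.64), a C/EBPβ peak for 624 (2.40%, 2.22 to 2.59), either for 748 (2.88%, 2.68 to 3.09) and both for 263. The 150-bp sites made up 119 of the 387 and 241 of the 624. The match was one to one for only 82 of the 387 and 85 of the 624. For the rest, the peak could lie in another vehicle DHS under the same dexamethasone interval. How often it did was not measured, so these shares are not counts of sites that gained a peak. Where the match was one to one, 82 sites with GR in the dexamethasone interval had median widths of 568 bp in the vehicle and 1180.5 bp in the dexamethasone list, a median log2 ratio of 1.00 (0.90 to 1.14). A larger dexamethasone interval is what lets it reach a peak outside the vehicle interval, so this ratio is built in. At 129795817 to 129795967 on chromosome 1, a 150-bp vehicle site lay 153 bp from a GR peak and 145 bp from a C/EBPβ peak, and matched a dexamethasone DHS of 1130 bp that held both.

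The extremes of width change were of several kinds. The largest rise was at 120279484 to 120279737 on chromosome 13, from 253 to 2018 bp, with the nearest GR peak 34.0 kb and the nearest C/EBPβ peak 27.9 kb away. At 88829294 to 88829548 on chromosome 11 the width went from 254 to 1644 bp, also with no peak in the dexamethasone interval. At 23131854 to 23132111 on chromosome 19 it went from 257 to 1210 bp, and here the dexamethasone interval held GR and C/EBPβ. At 25422859 to 25423188 on chromosome 3 it went from 329 to 1501 bp, 861 kb from GR. Of the 5 largest rises, all began at 329 bp or less. Of the 5 largest falls, 3 ended at exactly 150 bp. The falls were at 35693646 to 35694277 on chromosome 17 (631 to 150 bp), 13293457 to 13294063 on chromosome 2 (606 to 150 bp), 37247201 to 37247783 on chromosome 8 (582 to 150 bp), 3231383 to 3232552 on chromosome 15 (1169 to 307 bp) and 16900582 to 16901534 on chromosome 12 (952 bp at first, with a log2 ratio of -1.92). None of these 5 dexamethasone intervals held a GR or C/EBPβ peak.

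Peak-free sites tended to have each other as neighbours. The nearest other vehicle DHS was itself a peak-free constitutive DHS for 49.98% (49.4 to 50.6) of them, where such sites made up 45.8% of all vehicle DHS. It was so for 43.7% (42.8 to 44.6) of constitutive DHS with C/EBPβ and no GR and for 37.0% (35.9 to 38.1) of those with GR. For peak-free DHS of the vehicle list alone this share was 45.9% (44.8 to 47.0). The nearest neighbour held a GR peak for 13.1% of peak-free sites and for 30.6% of GR-holding ones. The median gap to the next vehicle DHS was 3863 bp, against 3605 bp for sites with C/EBPβ and no GR and 2198 bp for sites with GR, and 54.6% (54.0 to 55.2) had one within 5 kb. Peak-free DHS of the vehicle list alone had a wider median gap, 4815 bp, and 50.6% (49.5 to 51.8) had a vehicle DHS within 5 kb. DHS found in the dexamethasone list alone lay within 5 kb of 17.4% (17.0 to 17.9) of peak-free sites and vehicle-only DHS within 5 kb of 10.9% (10.6 to 11.3). For GR-holding constitutive DHS the shares were 26.8% and 10.2%. Sites with C/EBPβ and no GR had 16.7% and 12.2%, near the values of peak-free sites. The dexamethasone list has more list-only DHS (15076 against 8488), which raises the first share for every class.

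The share of peak-free sites was even over the autosomes and higher on the sex chromosomes. It lay between 42.7% (chromosome 15) and 48.1% (chromosome 17) on the 19 autosomes, and was 45.3% (44.9 to 45.7) over all of them. On chromosome X, 1006 of 1624 vehicle DHS were peak-free constitutive sites (61.9%, 59.6 to 64.3). On Y, 78 of 101 were (77.2%, 68.1 to 84.3). By the rule this goes with fewer peaks: a GR peak lay in 4.25% of X DHS and 15.7% of autosomal ones, and a C/EBPβ peak in 18.7% and 36.9%. X DHS were also narrower, with a median of 522 against 598 bp, but in 10 of 10 width bins the share was above that of the autosomes, for example 68.7% (60.3 to 76.0) against 52.8% (51.5 to 54.1) in the fifth. The share of DHS found again in the dexamethasone list was 82.9% on X and 85.1% on the autosomes. The mice were male, so X and Y differ from the autosomes in copy number. Whether this bears on the peaks and widths called there was not tested.

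Peak-free sites on X were slightly wider spaced than elsewhere and much farther from GR. Their median gap to the next vehicle DHS was 4.54 kb, against 3.86 kb on the autosomes. Their median gap to a GR peak was 408 kb against 49.6 kb, and to a C/EBPβ peak 91.8 kb against 14.1 kb. The median log2 width ratio was 0.0047 on X (907 sites) and -0.013 on the autosomes (22952 sites). On Y it was 0.17, from 57 sites.

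**Figure D5:**
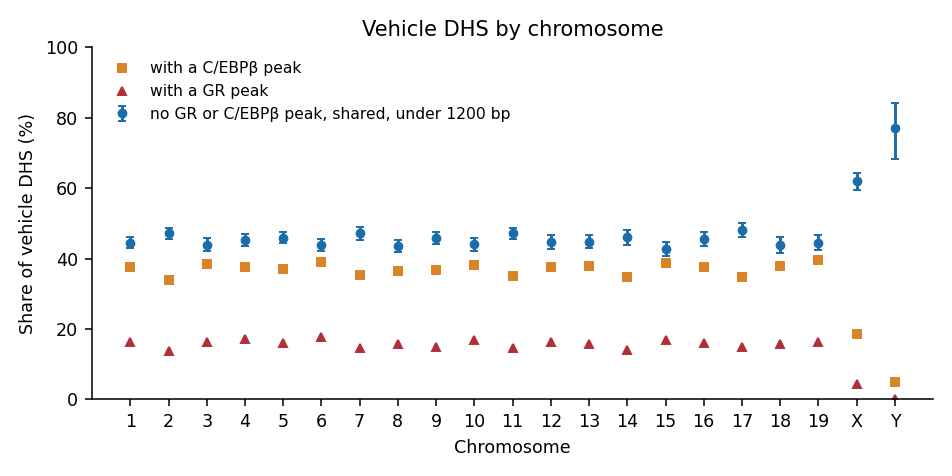
Share of vehicle DHS on each chromosome that are shared, under 1200 bp and without a GR or C/EBPβ peak (circles, with 95% Wilson intervals), and shares that hold a C/EBPβ peak (squares) or a GR peak (triangles). The 19 autosomes lie between 42.7% and 48.1%, X is at 61.9% and Y at 77.2%, and both peak shares are lowest on X and Y.

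Along the genome, peak-free sites were spread thinly with a few dense stretches. They fell into 11474 windows of 100 kb with a median of 2 each, and 4802 of these windows held 1. In 3703 windows there was no GR or C/EBPβ peak at all, and these held 6231 sites (23.95%, 23.4 to 24.5). Windows with 5 or more sites numbered 1057 and contained 24.1% of the set. The densest window, from 3000000 to 3100000 on chromosome 11, held 37 peak-free sites among 46 vehicle DHS that covered 37.3 kb. It lies at the centromeric end of that chromosome's assembled sequence and also held 2 GR peaks and 10 C/EBPβ peaks of each list. Next came windows with 14 sites each, starting at 25400000 on chromosome 3, 166400000 on X and 2400000 on Y. Those on 3 and Y held 0 GR peaks and 0 C/EBPβ peaks, and that on X held 3 GR peaks and 6 C/EBPβ peaks of each list. Chromosome Y has 0 GR peaks along its whole length. One of 2 windows with 13 sites, from 23800000 on chromosome 13, held 2 GR peaks and 7 C/EBPβ peaks of each list.

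Unbroken runs lay mostly elsewhere than the densest windows. Taken in order along each chromosome, vehicle DHS formed 13225 runs of peak-free sites, of which 7020 were of 1 site. Runs of 5 or more numbered 799 and held 5039 sites (19.4%). The longest run had 24 sites, from 121309438 to 125948328 on X, a span of 4639 kb with 0 GR and 0 C/EBPβ peaks and 8 dexamethasone-only DHS. The next were 21 sites over 126 kb from 2473321 on Y, 19 sites over 313 kb from 53074903 on X, 17 sites over 326 kb from 53409920 on X and 16 sites over 219 kb from 1272032 on Y. These 4 also held 0 GR and 0 C/EBPβ peaks, and 2 to 4 dexamethasone-only DHS each. By the rule no vehicle DHS of a run overlaps a peak, so only peaks between the sites could have been counted. On Y the list has 0 GR peaks in all, so 0 GR peaks in its runs was fixed in advance. Of the 48 runs of 10 or more, 11 were on X, which held 1006 of the 26012 peak-free sites. The share of vehicle DHS that were peak-free was 61.9% there and 45.3% on the autosomes. A higher share by itself makes long runs likelier.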

How the data were processed

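DNase-seq and ChIP-seq lists of 5 kinds were used, with other unit values: the authors deposited interval positions and a running identifier, with no signal. CASAVA 1.8 and genome build mm9 are named per the submitters' processing notes. For the aligner, peak caller, threshold and pooling of samples, the sources used here give nothing. Whether positions count from 0 or 1 is not stated, and they are printed as in the files, with width as end minus start. Of the dexamethasone DHS, 3 duplicate rows were dropped (63470 kept), and 0 columns of per-sample values were unused.

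Overlap meant 1 bp or more. Gaps are bases between interval ends. Width change used DHS that overlapped each other and no other. Named regions were the 5 densest 100-kb windows, the 5 longest runs, the 5 largest rises and falls in width, and the 5 sites most isolated or closest to GR. The members, rule and lists were chosen with earlier results of these data known. Planned sequence content was not analysed, since no mm9 genome was used here. Scripts were tested on simulated intervals, and bedtools 2.31.1 gave equal overlap counts. Versions were numpy 2.4.6 under Python 3.11.15, pandas 2.3.3, scipy 1.17.1 and matplotlib 3.10.9.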

Additional observations from a re-analysis of the deposited data

How the results depend on the processing

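Of 91 alternative values, 60 stayed within the 95% interval of the reported one (for the count of sites, within 1.5-fold) and 31 did not. The number of sites fell outside 1.5-fold only with a limit of 600 bp (14216). That limit also gave a median log2 width ratio of 0.065, a difference of 0.28 between GR-holding and peak-free sites, 21.7% within 10 kb of GR, 39.4% within 10 kb of C/EBPβ, 1.93% with GR in the dexamethasone interval, 52.5% with a vehicle DHS within 5 kb and 41.3% of X DHS. With the span of all overlapping dexamethasone DHS the median ratio was 0.0095. The difference to GR-holding sites was 0.15 as fitted, 0.13 without a width limit and 0.26 at like vehicle widths. The 1.49% with GR in the dexamethasone interval became 1.24% when the larger part of the shorter interval had to be shared, 1.25% when the centre had to be, 0.172% without sites under 500 bp from a peak, 1.04% for DHS of 300 bp or more, 1.05% without DHS of the 2 recurrent widths and, with touching intervals merged (chosen after seeing the data), 1.18%. The share within 10 kb of GR was 20.3% without sites under 500 bp from a peak, 22.9% with the vehicle C/EBPβ list alone and 23.0% on autosomes. Within 10 kb of C/EBPβ the same settings gave 38.6%, 45.7% and 42.9%, and merging gave 41.3%. A vehicle DHS within 5 kb was found for 52.6% without sites under 500 bp from a peak, 52.3% for DHS of 300 bp or more, 52.9% without DHS of the 2 recurrent widths and 53.3% after merging. The X share was 64.4% with the vehicle C/EBPβ list alone. Peak-free windows held 37.4% of sites at 50 kb and 13.1% at 200 kb. Leaving out the densest window and chromosome Y, also chosen after seeing the data, gave 25897 sites and left the other 7 values recomputed under it within their intervals, and the share in peak-free windows was not among them. No paired analysis was possible because each treatment has 1 list with no samples in it, and for the same reason no replicate could be left out.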

Other observations

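Some peak-free constitutive sites stood alone in very large stretches without another vehicle DHS and were found in both lists. Gaps to other DHS of the dexamethasone list were not measured. The most isolated, at 104618634 to 104619101 on chromosome 6, lay 1931 kb from the next vehicle DHS and was 467 bp wide in the vehicle list and 402 bp in the dexamethasone list. The others were at 96327416 to 96328091 on chromosome 14 (1919 kb from the next, 675 and 664 bp), 102687526 to 102687898 on chromosome 6 (1359 kb, 372 and 505 bp), 78789940 to 78790319 on X (1243 kb, 379 and 368 bp) and 43858563 to 43859234 on chromosome 3 (1155 kb, 671 and 621 bp). Of these 5, that on chromosome 14 had a C/EBPβ peak 10.3 kb away, outside any vehicle DHS, and the nearest GR peaks lay between 1370 and 3577 kb away. In all, 790 peak-free sites (3.04%) lay over 100 kb from the next vehicle DHS, against 2.06% of constitutive DHS with C/EBPβ and no GR and 0.687% of those with GR. For peak-free DHS of the vehicle list alone the share was higher, 4.56% (341 of 7484).

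At the other end, the 5 sites closest to a GR peak missed it by 1 to 8 bp. At 151820992 to 151821567 on chromosome 5, 1 bp from a GR peak, the width went from 575 to 1174 bp after dexamethasone. At 26577298 to 26577902 on chromosome 10, also 1 bp away, it went from 604 to 1034 bp, and at 15948195 to 15948740 on chromosome 16, 4 bp away, from 545 to 890 bp. At 113146121 to 113146710 on chromosome 12, 4 bp away, it went from 589 to 552 bp. The site at 26999076 to 26999353 on chromosome 9, 8 bp away, had no one-to-one match.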
